A study of Mus musculus with 6 samples.

Results

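Homeobox genes encode transcription factors that bind DNA through a homeodomain. A set of 75 genes, 71 of them protein coding, was followed in glomerular endothelial cells (GEC) of diabetic and normal mice. They were the genes with a symbol in the Hoxa, Hoxb, Hoxc, Hoxd, Meis, Pbx, Irx, Lhx or Prrx families, together with Six2 to Six6, Emx2, Hhex, Tgif1, Tgif2, Zeb1 and Zeb2. The 75 include 4 RNAs transcribed from the opposite strand of such genes, Hoxd3os1, Hoxaas2, Irx3os and Six3os1. For brevity all 75 are called homeobox genes below. Each gene was read through its probeset of highest mean signal among those that the array annotation assigns to that gene alone, 76 probesets for the 75 genes, out of 35557 probesets and 19938 genes in all. Of the 75 genes 43 reached a signal of 100 on the linear scale, or 6.64 on the log2 scale, in 3 or more of the 6 arrays, the minimum that the study set for a probeset to be analysed. Without the 4 RNAs, 40 of 71 did.

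The db/db mice carried the Tie2-GFP transgene and 2 mutant alleles of the leptin receptor gene. This loss of function leads to obesity, diabetes and kidney disease. The normal mice also carried the transgene. The study calls its controls wild type or non db/db littermates, and the labels do not state their leptin receptor alleles. Both groups were 7 months old. GFP driven by the Tie2 promoter marks endothelial cells, and it can also mark some blood cells. Cells of sieved glomeruli were sorted for GFP, and each of 3 db/db and 3 normal samples, labelled biological replicates, was hybridised to 1 Affymetrix Mouse Gene ST array. All levels below are log2 probeset signals, and errors are SD over 3 arrays. Signals of different probesets depend on their probes, so a level is set here only against the value of 100 and against the same gene in other arrays.

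HOX proteins give cells of the embryo a position along the body axis. Their genes lie in 4 clusters, and within a cluster the genes numbered low are used toward the head and those numbered high toward the tail. Adult endothelial cells and fibroblasts can keep part of the Hox pattern of the place where they arose. PBX and MEIS proteins, homeodomain proteins of the TALE class, bind DNA together with HOX proteins and sharpen their choice of sites. TGIF proteins belong to the same class and act as repressors, ZEB proteins repress epithelial genes such as E-cadherin, and HHEX acts early in the endothelial and blood lineages.

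A HOX-PBX pair recognises a bipartite DNA site, here searched as TGATNNAT on both strands. The mouse gene with the best known site of this kind is Hoxb1, whose protein acts with PBX on its own regulatory region in the hindbrain. RefSeq promoter windows of the GRCm38.p6 build, from 250 bases before to 50 bases after a start site, were held for 52 of the 75 genes. The following 4 are shown because Hoxb1 and Hoxa2 hold the site and lie on either side of the level of 100, Hoxb4 lay far above the level in every array, and Hoxd8 has the largest measured increase in db/db GEC. Capitals mark each match to the site.
Hoxb1 promoter, chr11:96365508-96365807, plus strand: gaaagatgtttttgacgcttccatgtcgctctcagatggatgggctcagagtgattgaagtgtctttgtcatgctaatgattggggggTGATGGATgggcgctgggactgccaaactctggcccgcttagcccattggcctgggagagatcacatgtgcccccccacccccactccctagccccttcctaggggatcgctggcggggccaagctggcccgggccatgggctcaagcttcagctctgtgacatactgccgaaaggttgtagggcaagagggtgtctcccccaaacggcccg
Hoxa2 promoter, chr6:52164782-52165081, minus strand: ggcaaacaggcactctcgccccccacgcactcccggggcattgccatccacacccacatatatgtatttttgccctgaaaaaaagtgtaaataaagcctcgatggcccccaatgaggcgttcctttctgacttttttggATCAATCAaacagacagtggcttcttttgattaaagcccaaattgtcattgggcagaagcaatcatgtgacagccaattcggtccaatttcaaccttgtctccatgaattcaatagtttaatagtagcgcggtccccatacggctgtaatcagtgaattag
Hoxb4 promoter, chr11:96318017-96318316, plus strand: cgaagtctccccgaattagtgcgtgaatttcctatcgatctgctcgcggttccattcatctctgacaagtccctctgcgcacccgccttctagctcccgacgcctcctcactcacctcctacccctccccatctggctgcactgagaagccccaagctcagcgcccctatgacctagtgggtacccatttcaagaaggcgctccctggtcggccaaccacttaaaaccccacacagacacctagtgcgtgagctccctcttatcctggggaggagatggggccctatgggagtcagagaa
Hoxd8 promoter, chr2:74704365-74704664, plus strand: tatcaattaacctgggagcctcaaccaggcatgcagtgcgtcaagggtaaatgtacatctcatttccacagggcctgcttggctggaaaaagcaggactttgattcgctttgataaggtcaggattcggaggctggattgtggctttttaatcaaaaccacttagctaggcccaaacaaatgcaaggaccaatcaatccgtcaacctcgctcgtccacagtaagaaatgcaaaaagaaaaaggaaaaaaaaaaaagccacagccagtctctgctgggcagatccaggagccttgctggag

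The match in the Hoxb1 window was TGATGGAT, and that in the Hoxa2 window was ATCAATCA, a match on the other strand. The site was found in 3 of 30 genes that reached the level, namely Hoxb1, Tgif1 and Lhx4, and in 2 of 22 that did not, Hoxa2 and Hoxd11. Counted by window, 7.58% of 66 windows of these genes held it, against 8.85% of 32851 windows of all genes. The site was thus about as frequent here as in promoters at large. The windows of these genes held a median of 19.5 CpG dinucleotides per gene, against 8 over 27025 genes, taking the window with the most where a gene had several. The median was 19 for the genes that reached the level and 20 for those that did not. A sequence match describes the letters of the window only.

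Of the endothelial markers 15 of 15 reached the level, against 64% of all 19938 genes, with means over the 6 arrays from 9.21 to 13.61. Among them was Emcn, a sialomucin of capillary endothelium (13.63 ± 0.04 in db/db and 13.59 ± 0.02 in normal GEC). The counts for other cells that follow are to be read against the same 64%. Among lists for other cells, the level was reached by 6 of 13 mesangial and smooth muscle markers, 6 of 9 podocyte markers, 3 of 5 parietal epithelial markers, 4 of 8 proximal tubule markers, 7 of 10 distal tubule and collecting duct markers, 3 of 10 leukocyte markers and 2 of 2 erythrocyte markers. Aqp2, the water channel of collecting duct cells, gave 7.88 ± 0.05 in db/db and 7.71 ± 0.24 in normal GEC, and Slc34a1, the phosphate carrier of the proximal tubule, gave 7.55 ± 0.10 in db/db and 7.53 ± 0.05 in normal GEC. The most abundant markers within 2 further lists were Podxl (11.80 ± 0.03 in db/db and 12.08 ± 0.15 in normal GEC) and Cdkn1c (8.48 ± 0.09 and 8.89 ± 0.17) among podocyte markers, of which endothelial cells also make Podxl, and Tyrobp (8.77 ± 1.30 in db/db and 8.83 ± 0.18 in normal GEC) and Cd14 (8.33 ± 0.04 and 9.03 ± 0.83) among leukocyte markers. Averaged over the 6 arrays, Kdr stood at 13.13, Aqp1 at 10.02, Gata2 at 9.24, Krt8 at 7.88, Acta2 at 7.44, Tagln at 7.41, Alas2 at 7.23, Slc4a1 at 7.14 and Pax8 at 6.90. Aqp1 and Gata2 are also expressed by endothelial cells. A signal somewhat above 100 was therefore also measured for genes that define tubule cells, and whether RNA of other cells, background signal or both lay behind it was not tested. Median signal per array lay between 7.00 and 7.04, and in a principal component analysis normal replicate 2 lay away from the other 5 arrays.

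The 37 Hox genes measured gave a pattern that depended on the cluster, and 18 of them reached the level. In the HoxB cluster 8 of 9 genes did, in the HoxA cluster 6 of 10, in the HoxD cluster 4 of 9 and in the HoxC cluster 0 of 9. Within the clusters A, B and D the genes of the middle of the cluster reached the level most often, with 10 of 10 genes of paralogue groups 4 to 8 and 4 of 5 of groups 9 and 10. Of groups 1 to 3, 3 of 7 genes did, all in HoxB, and of groups 11 to 13, 1 of 6, which was Hoxd13.

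**Figure D1:**
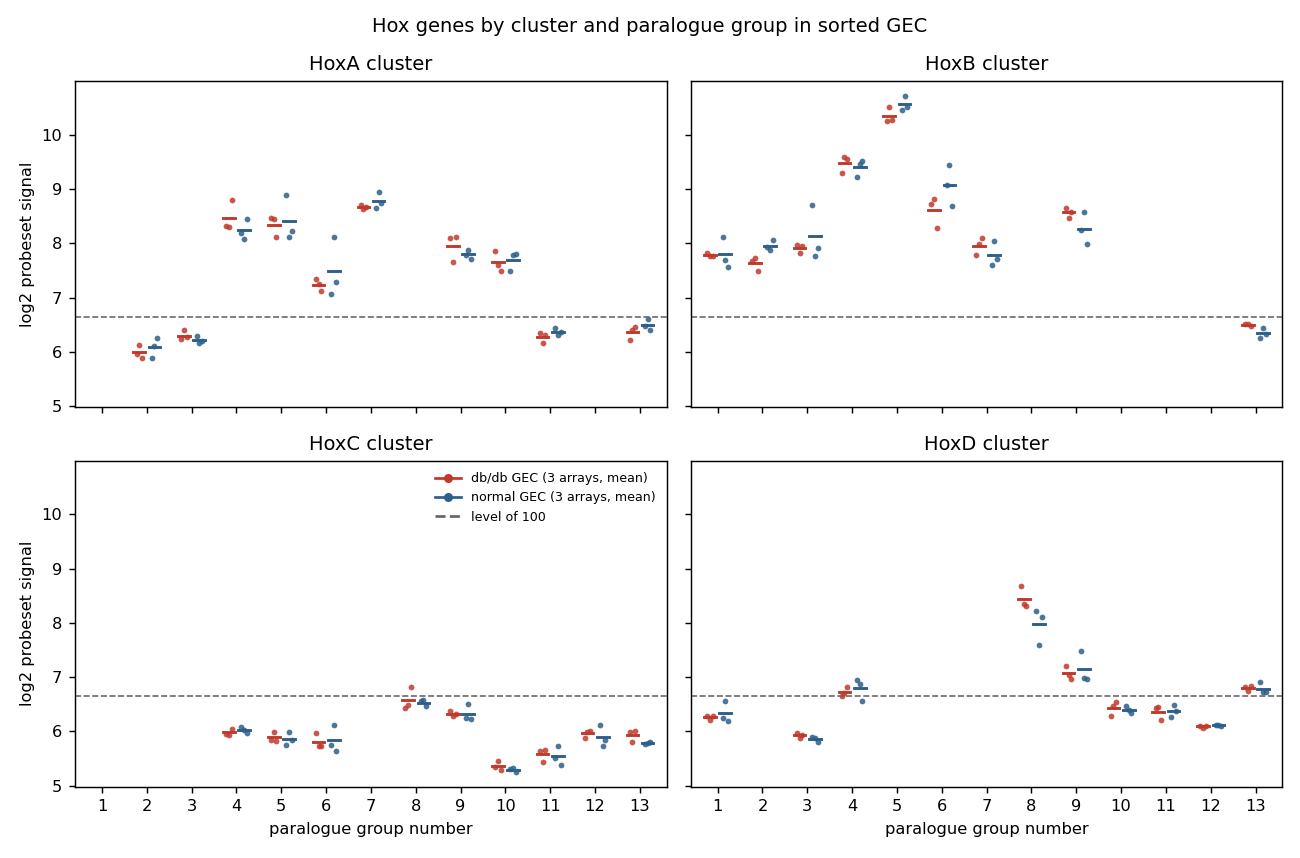
Log2 probeset signal (vertical axis) of 37 Hox genes by paralogue group number (horizontal axis) and cluster (panels), with 1 point per array, a short bar for the mean of 3 arrays, db/db left of normal, and a dashed line at the level of 100. HoxB genes other than Hoxb13 lie above the line, and all 9 HoxC genes average below it. Among the genes that reached the level, db/db and normal points overlap for all but Hoxb2 and Hoxd8. The points of Hoxb6 spread from 8.29 to 9.44.

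The HoxB cluster had the most genes at the level. Hoxb5, which activates the VEGF receptor gene Kdr in endothelial precursors, measured 10.26, 10.52 and 10.26 in the db/db arrays and 10.46, 10.72 and 10.51 in the normal arrays. Hoxb4, which supports the renewal of blood stem cells, measured 9.30, 9.59 and 9.56 in the db/db arrays and 9.21, 9.46 and 9.52 in the normal arrays. For both genes the groups overlapped, and all 6 arrays lay far above the level. Hoxb6 measured 8.73, 8.81 and 8.29 in the db/db arrays and 9.08, 9.44 and 8.69 in the normal arrays, with the lowest normal array below the 2 highest db/db arrays. Hoxb9 measured 8.65, 8.47 and 8.58 in the db/db arrays and 8.25, 8.57 and 7.99 in the normal arrays, where normal replicate 2 lay within the db/db values. The remaining HoxB genes that reached the level, Hoxb1, Hoxb2, Hoxb3 and Hoxb7, averaged between 7.79 and 8.02 over the 6 arrays. Hoxb13, the last gene of the cluster, averaged 6.42 and stayed under the level in every array. Hoxb7 is also used in the collecting duct lineage. The list of loop, distal tubule and collecting duct markers summed to between 1514 and 1877 on the linear scale in db/db arrays and between 1488 and 1771 in normal arrays. Without Gata2, which endothelial cells express too, it summed to between 1045 and 1194 in db/db arrays and between 879 and 1028 in normal arrays. Calb1 and Umod of that list gave db/db values above all their normal values, as for 7.01% of all tested probesets. The other markers of the list overlapped between the groups. Calb1 averaged 6.07 and did not reach the level, and Umod averaged 6.61, close to it. The part of such cells in the Hoxb7 signal was not tested.

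In the HoxA cluster the genes on either side of the middle block were below the level. Hoxa7 measured 8.71, 8.64 and 8.67 in the db/db arrays and 8.64, 8.94 and 8.74 in the normal arrays. Hoxa4 measured 8.31, 8.31 and 8.79 in the db/db arrays and 8.20, 8.07 and 8.44 in the normal arrays. The values of the groups overlapped for both. Hoxa5, which restrains the growth of new vessels, averaged 8.34 ± 0.20 in db/db and 8.41 ± 0.42 in normal GEC, and Hoxa9, which human endothelial cells need for the expression of nitric oxide synthase and E-selectin, averaged 7.95 ± 0.26 in db/db and 7.80 ± 0.08 in normal GEC. Hoxa10 and Hoxa6 averaged 7.67 and 7.36 over the 6 arrays. Hoxa2, Hoxa3, Hoxa11 and Hoxa13 averaged between 6.04 and 6.43, with no array at 100. Hoxa11 works with its paralogues Hoxc11 and Hoxd11 in forming the kidney from embryonic mesenchyme, and all 3 were under the level in every array.

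The HoxD cluster had a single gene that also reached 200, Hoxd8, at 8.67, 8.36 and 8.32 in the db/db arrays and 8.22, 7.59 and 8.11 in the normal arrays. Each db/db array was above every normal array, and normal replicate 2 was the lowest. Hoxd9, Hoxd13 and Hoxd4 averaged 7.11, 6.80 and 6.76, just above the level, and Hoxd4 reached it in 5 arrays. Hoxd3, which drives endothelial cells into an invasive, vessel-forming state, averaged 5.89, and Hoxd10, which holds them in a resting state, averaged 6.42, both under the level in all 6 arrays. Hoxd1, Hoxd11 and Hoxd12 were under it in all 6 arrays as well.

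The HoxC genes, from Hoxc4 to Hoxc13, had means between 5.33 and 6.55. A single value reached 100, that of Hoxc8 in db/db replicate 3 (6.81), while its other arrays gave 6.43 and 6.48 in db/db and 6.56, 6.57 and 6.46 in normal GEC. The same cluster pattern stood at a stricter level of 200, or 7.64 on the log2 scale, reached by 8 HoxB, 5 HoxA, 1 HoxD and 0 HoxC genes. Markers of other cells reached it too, with means of 7.80 for Aqp2 and 7.88 for Krt8. Hoxb1 and Hoxb2 averaged 7.79, so this level does not set such genes apart from those markers.

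The clusters also hold microRNAs that target Hox transcripts, and their sequences are given because members of different clusters share a seed, bases 2 to 8, shown in capitals. The mature sequences are from RefSeq, GRCm38.p6.
miR-10a-5p, HoxB cluster: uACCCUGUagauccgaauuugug
miR-10b-5p, HoxD cluster: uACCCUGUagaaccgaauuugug
miR-196a-5p, HoxB and HoxC clusters: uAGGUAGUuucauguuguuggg
miR-196b-5p, HoxA cluster: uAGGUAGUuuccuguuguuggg
The miR-10 pair shares one seed and the miR-196 group another. The 5 probesets for their genes, Mir10a, Mir10b, Mir196a-1, Mir196a-2 and Mir196b, were under 100 in all 6 arrays. Mir10a, next to Hoxb4, gave 3.83 to 3.89 in db/db and 3.87 to 3.96 in normal GEC. Such arrays label long RNA and their probesets do not separate a mature microRNA, so these values say little about it. Hottip, a long RNA of the tail end of HoxA, was also under 100 in all 6 arrays.

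All 8 genes of the Meis, Pbx and Tgif families reached the level in every array. Meis2 measured 12.81, 12.76 and 12.68 in the db/db arrays and 12.63, 12.58 and 12.81 in the normal arrays, all far above the level. Normal replicate 3 held the top value and normal replicate 2 the lowest, so that the db/db arrays lay inside the normal range. Meis1 measured 8.78, 9.04 and 8.97 in the db/db arrays and 9.03, 7.94 and 8.94 in the normal arrays. The arrays of Meis1 lay between 8.78 and 9.04 except normal replicate 2, which was lower. The study used Meis1 as a mesangial marker. In the mesangial and smooth muscle list Pdgfrb, Itga8 and Rgs5 averaged 6.46, 6.25 and 5.36 and were under the level in all 6 arrays, whereas Acta2, Tagln, Myl9, Agtr1a, Myh11 and Cspg4 reached it with means from 6.72 to 7.44. The list summed to between 1270 and 1529 on the linear scale in db/db arrays and between 1248 and 1352 in normal arrays, and the part of such cells in the Meis1 signal was not tested.

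Pbx2 measured 8.77, 8.63 and 8.64 in the db/db arrays and 8.76, 8.98 and 8.82 in the normal arrays. Pbx3 measured 8.61, 9.06 and 8.70 in the db/db arrays and 8.80, 8.77 and 8.51 in the normal arrays. Both overlapped between the groups. Pbx4 and Meis3 averaged 7.67 and 7.41. Tgif1 and Tgif2, which hold back transcription downstream of TGF-beta and retinoic acid, averaged 8.10 and 7.32, and Tgif1 had an SD of 0.40 in db/db and 0.44 in normal GEC.

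**Figure D2:**
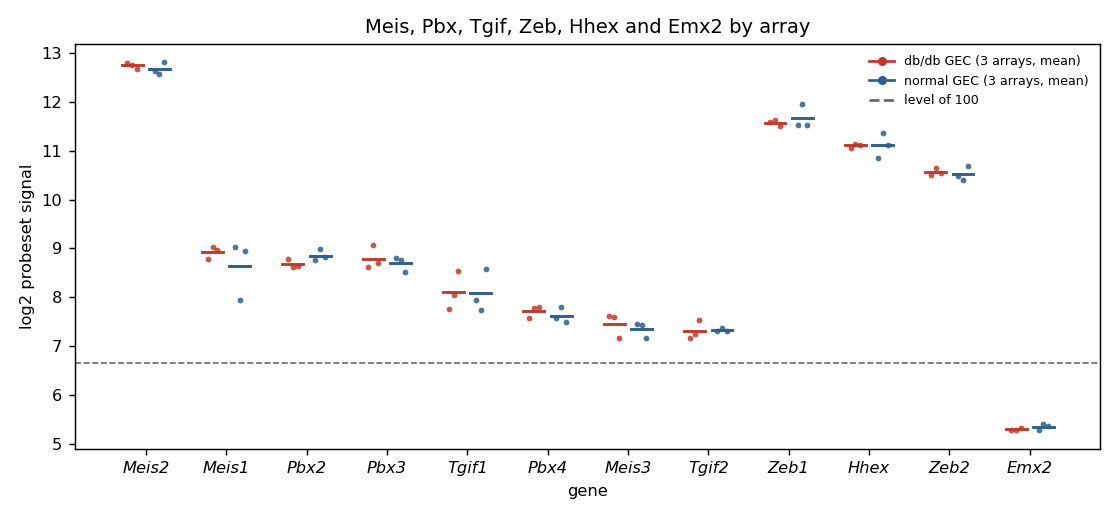
Log2 probeset signal (vertical axis) of the Meis, Pbx and Tgif genes and of Zeb1, Hhex, Zeb2 and Emx2 (horizontal axis), with 1 point per array, a short bar for the mean of 3 arrays, db/db left of normal, and a dashed line at the level of 100. Meis2, Zeb1, Hhex and Zeb2 lie above 10 in every array, Emx2 lies below the line, and the single low point of Meis1 is normal replicate 2.

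Zeb1 measured 11.59, 11.62 and 11.50 in the db/db arrays and 11.53, 11.95 and 11.52 in the normal arrays. Hhex measured 11.06, 11.14 and 11.12 in the db/db arrays and 10.85, 11.37 and 11.12 in the normal arrays. Zeb2 measured 10.51, 10.64 and 10.54 in the db/db arrays and 10.48, 10.41 and 10.68 in the normal arrays. The groups overlapped for all 3 genes, and for Hhex and Zeb2 the db/db arrays fell inside the range of the normal arrays. Of the epithelial genes that ZEB proteins repress, Cdh1, Epcam and Esrp1 averaged 6.02, 5.30 and 5.75, under the level, while Cldn4, Crb3 and Rab25 averaged 7.53, 7.16 and 6.75 and reached it in all 6 arrays. Emx2, a factor of the ureteric bud and its derivatives, averaged 5.32, under the level in all 6 arrays.

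The Irx, Lhx, Prrx and sine oculis (Six2 to Six6) genes, known for roles in patterning, nerve cells, limb mesenchyme and the early kidney, mostly lay near or under the level. Of 6 Irx genes 5 reached it. Irx3 averaged 8.01 in db/db and 7.75 in normal GEC, with an SD of 0.54 among its db/db arrays, and Irx4 averaged 6.32. Irx genes also mark nephron segments of the kidney, and the proximal tubule list summed to between 1537 and 1768 on the linear scale in db/db arrays and between 1774 and 1812 in normal arrays. Without Aqp1, which endothelial cells express too, it summed to between 661 and 745 in db/db arrays and between 641 and 694 in normal arrays. The list of loop, distal tubule and collecting duct markers, without Gata2, summed to between 1045 and 1194 in db/db arrays. In normal arrays that list summed to between 879 and 1028. The part of tubule cells of either list in the Irx signal was not tested. Of 8 Lhx genes, Lhx2, Lhx3, Lhx4 and Lhx6 reached the level, with means from 7.02 to 7.62, and Lhx1, which the forming nephron needs, did not at 6.35. Lhx2 measured 7.39, 7.46 and 7.50 in the db/db arrays and 7.44, 7.30 and 7.25 in the normal arrays, and the groups overlapped. Of the 5 sine oculis genes Six5 alone reached it at 7.51, and Six2, which keeps nephron progenitors, averaged 6.27. Of the Prrx symbols Prrxl1, a gene of sensory nerve cells, did at 7.33, and Prrx1 was under the level in all arrays.

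The call of reaching the level was tight for several genes. Irx1, Irx5 and Hoxaas2 were the last inside it by the signal of their array ranked 3. Irx1 measured 6.71, 6.78 and 7.04 in the db/db arrays and 6.87, 6.82 and 6.77 in the normal arrays. Irx5 measured 6.82, 6.77 and 6.66 in the db/db arrays and 6.70, 6.95 and 6.63 in the normal arrays. Hoxaas2 measured 6.70, 6.84 and 6.61 in the db/db arrays and 6.73, 6.62 and 6.72 in the normal arrays. These genes lay close to the line. Irx1 was above it in all 6 arrays, Irx5 in 5 and Hoxaas2 in 4. Just outside, besides Hoxc8, Prrx2 measured 6.63, 6.50 and 6.83 in the db/db arrays and 6.72, 6.59 and 6.49 in the normal arrays. Six3 measured 6.62, 6.62 and 6.50 in the db/db arrays and 6.76, 6.64 and 6.46 in the normal arrays. In total 40 genes reached the level in all 6 arrays, 3 in 3 to 5, 3 in 1 or 2, and 29 in 0. The share of the 75 genes that reached it, 57.3%, was near the 64% of all 19938 genes.

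Among the opposite-strand RNAs, Hoxd3os1 measured 7.80, 7.48 and 7.27 in the db/db arrays and 7.37, 6.76 and 7.26 in the normal arrays. Its lowest value was normal replicate 2, and its second probeset averaged under the level in both groups. Irx3os averaged 7.29 and Six3os1 6.09. In the RefSeq annotation 9 pairs of the 75 genes overlap, among them Hoxd3 with Hoxd3os1 and Hoxd4, Hoxa3 with Hoxa4, Hoxa5, Hoxa6 and Hoxaas2, and Hoxb3 with Hoxb4, and a probeset in such a stretch may read more than its own gene.

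Setting db/db against normal GEC asked whether the diabetic state goes with a change in these factors. None of the 43 homeobox genes that reached the level passed limma's test with Benjamini-Hochberg adjustment over all 20661 tested probesets, of which 0% passed (smallest adjusted p = 0.203 in the whole table, and 0.702 to 0.999 among the 43 genes). At an unadjusted p under 0.05 limma gave 1 of the 43 genes, Hoxb2, or 2.33%, against a background of 6.39% of all tested probesets, 3.48% higher and 2.91% lower in db/db. The methods' t-test likewise gave Hoxb2 alone, against a background of 6.2%. These shares are not above the background. In sorted bulk RNA a lower signal from fewer cells of a type and from less RNA per cell cannot be told apart, and the p-values measure the spread between these labelled replicates.

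Hoxb2, a gene of the head end of the cluster, measured 7.67, 7.73 and 7.50 in the db/db arrays and 7.93, 7.88 and 8.05 in the normal arrays. Each db/db array was below every normal array, as for 5.31% of all tested probesets. The log2 change was -0.32 ± 0.10 SE, 1.25-fold lower in db/db (limma adjusted p = 0.702). Its unadjusted p was no longer under 0.05 without db/db replicate 3, where the change was -0.25, or without normal replicate 3, where it was -0.27.

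Hoxd8 was the only other gene of the 43 whose groups did not overlap, with every db/db array above the normal arrays, as for 7.01% of all tested probesets. Its log2 change was 0.47 ± 0.20 SE, 1.39-fold higher in db/db (limma adjusted p = 0.783). Without normal replicate 2 the change was 0.28. That array was the farthest from the gene mean in 13 of the 43 genes, and each other array was in 1 to 9.

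The other genes of smallest p in the limma fit also missed the threshold. Toward lower signal in db/db these were Hoxb6 (log2 change -0.46 ± 0.24 SE, adjusted p = 0.825), Hoxb5 (-0.22 ± 0.12, adjusted p = 0.833) and Pbx2 (-0.17 ± 0.10, adjusted p = 0.84), with Hoxa7 at -0.10 ± 0.10. Toward higher signal they were Hoxb9 (0.30 ± 0.16 SE, adjusted p = 0.831), Hoxd3os1 (0.39 ± 0.21, adjusted p = 0.836), Lhx2 (0.12 ± 0.09, adjusted p = 0.873) and Hoxa4 (0.23 ± 0.18, adjusted p = 0.876). Leaving out 1 array moved several of these values. Without normal replicate 2 the change was -0.27 for Hoxb6, -0.14 for Hoxb5, -0.11 for Pbx2, -0.02 for Hoxa7, 0.20 for Hoxd3os1 and 0.15 for Hoxa4. Without db/db replicate 3 it was -0.30 for Hoxb6 and 0.07 for Hoxa4, without db/db replicate 1 it was 0.25 for Hoxd3os1, without normal replicate 1 it was -0.17 for Hoxa7, and without normal replicate 3 it was 0.16 for Hoxb9. Neighbours in the HoxB cluster thus had changes of either sign, none past the test. For Meis1 the change was 0.29 ± 0.31 SE (adjusted p = 0.907), and it was -0.06 without normal replicate 2.

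**Figure D3:**
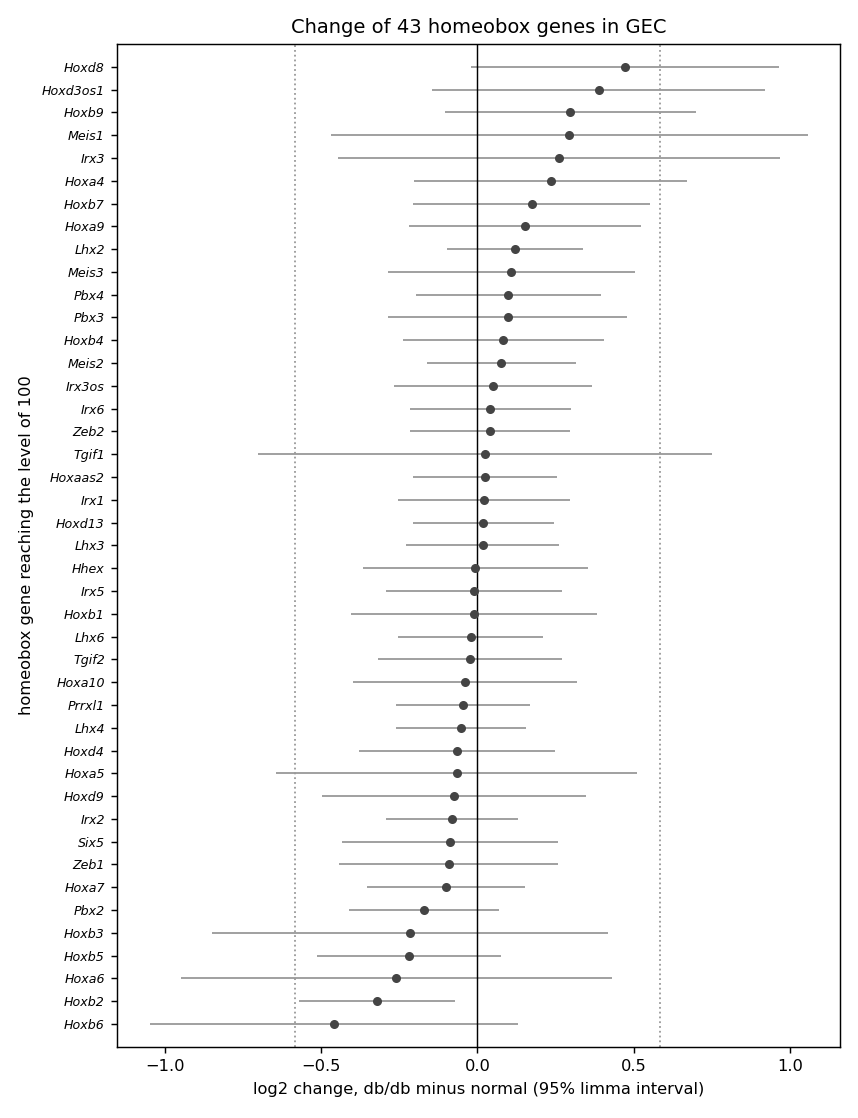
Log2 change, db/db minus normal (horizontal axis), of the 43 homeobox genes that reached the level of 100 (vertical axis, ordered by change), with points for limma estimates, bars for 95% intervals and dotted lines at 1.5-fold. The interval of Hoxb2 alone leaves out 0, and 32 of the 43 intervals lie between the dotted lines.

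The intervals bound how large a change these arrays could have missed. The 95% interval lay within 1.5-fold in either direction for 32 of the 43 genes, or 74.4%, against 60.1% of all tested probesets. For Meis2 it ran from -0.16 to 0.31, for Zeb1 from -0.44 to 0.26, for Hhex from -0.37 to 0.35 and for Zeb2 from -0.22 to 0.30 on the log2 scale. Changes of 1.5-fold were outside these intervals. For Hoxb6, from -1.05 to 0.13, and Meis1, from -0.47 to 1.06, even a change of 2-fold lay inside. Among the 43 genes 22 were higher and 21 lower in db/db, with a median log2 change of 0.02, against 0.01 over all tested probesets. The median size of change was 0.08 for the 43 genes and 0.12 over all tested probesets, or 0.11 over tested probesets with 1 gene symbol. The median residual SD was 0.161 for the 43 genes, 0.162 for tested probesets with a listed gene and 0.179 over all tested probesets.

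**Figure D4:**
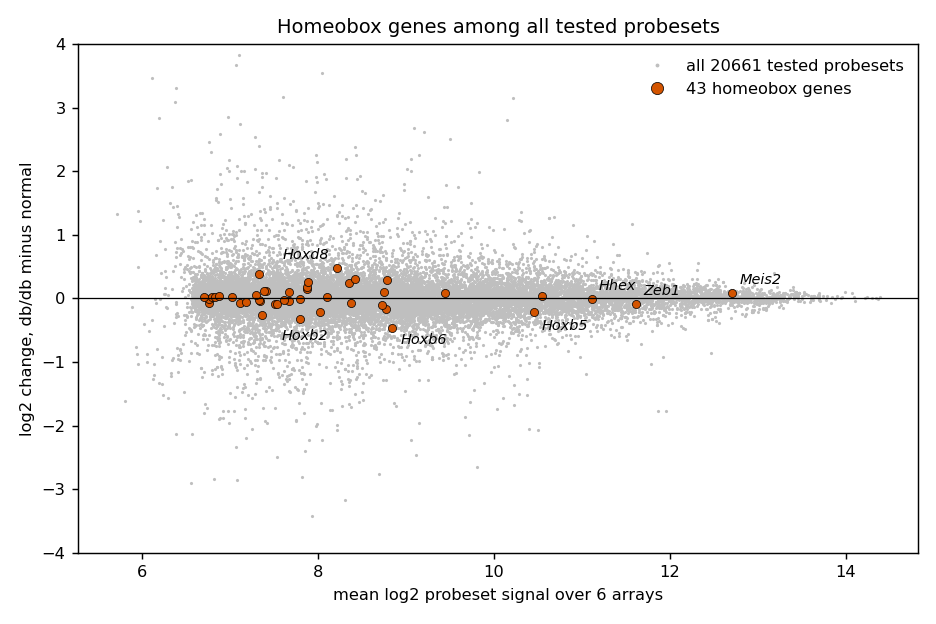
Log2 change, db/db minus normal (vertical axis), against mean log2 signal over 6 arrays (horizontal axis) for all 20661 tested probesets (grey) and the 43 homeobox genes that reached the level of 100 (orange). The homeobox genes lie between -0.46 and 0.47, inside the grey cloud.

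Factors that set or read the Hox pattern were compared in the same way. Of 42 measured regulators and further TALE cofactors, chromatin proteins of the Polycomb and Trithorax groups and genes of retinoic acid signalling, 38 reached the level and 0 passed the test, with Pcgf2 and Suz12 under an unadjusted 0.05. Pcgf2, a Polycomb protein, measured 9.04, 9.14 and 9.45 in the db/db arrays and 8.85, 8.63 and 8.88 in the normal arrays (log2 change 0.42 ± 0.14 SE, limma adjusted p = 0.724). Suz12, a subunit of the complex that methylates histone H3 at silenced genes, measured 9.79, 9.88 and 9.68 in the db/db arrays and 9.98, 10.40 and 10.09 in the normal arrays (-0.37 ± 0.13 SE, limma adjusted p = 0.754). The groups did not overlap for either gene. Of all tested probesets, 7.01% had every db/db array above the normal arrays and 5.31% had every db/db array below them. In limma 6.39% of all tested probesets had an unadjusted p under 0.05. Next by p toward higher signal were Rarb, a retinoic acid receptor (0.80 ± 0.33 SE, adjusted p = 0.783), and Dhrs3, a reductase of retinaldehyde (0.72 ± 0.30, adjusted p = 0.783). The groups of Dhrs3 did not overlap. Those of Yy1, Ash2l, Ezh1 and Rara did not overlap either, with db/db lower for these genes. Next toward lower signal was Rnf2, a Polycomb ubiquitin ligase (-0.37 ± 0.18, adjusted p = 0.814). The median log2 change over the regulators that reached the level was -0.04.

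Of 21 genes reported as targets of HOX or ZEB proteins in endothelium or epithelium, 15 reached the level and 0 passed the test, with Sele under an unadjusted 0.05. Sele, the E-selectin that lets leukocytes roll on endothelium and a target of HOXA9 in human cells, measured 11.87, 11.21 and 11.56 in the db/db arrays and 8.75, 8.29 and 9.20 in the normal arrays (log2 change 2.80 ± 0.28 SE, limma adjusted p = 0.228). The groups of Sele did not overlap, and 7.01% of all tested probesets had every db/db array above the normal arrays. Those of Hoxa9 overlapped, with a log2 change of 0.15 ± 0.15 SE. A link between Hoxa9 and Sele was not tested. Itgb3, an integrin subunit (0.85 ± 0.40 SE, adjusted p = 0.814), Thbs2, an inhibitor of vessel growth (-0.48 ± 0.25, adjusted p = 0.825), and Ephb4, a receptor of venous endothelium (-0.11 ± 0.11, adjusted p = 0.903), overlapped between the groups. Kdr, also on the list, measured 13.18, 13.18 and 13.18 in the db/db arrays and 13.10, 13.06 and 13.10 in the normal arrays. Its groups did not overlap, and its log2 change was 0.10 ± 0.07 SE (limma adjusted p = 0.873). The median log2 change over the targets that reached the level was 0.10.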

How the data were processed

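The authors measured total RNA of sorted GEC on Affymetrix Mouse Gene ST arrays and deposited log2 probeset signals, 1 column per array. RMA in GeneSpring is the normalisation given in the study's methods, but MAS5 is the only tool in the submitters' notes, so which made these values is not settled. Either scaling sets each change relative to the other probesets of an array. No further normalisation was applied. Probesets at 100 or more on the linear scale in 3 or more of 6 arrays were tested (20661).

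Groups came from the labels. db/db minus normal was fitted with lmFit and eBayes of limma 3.58.1 in R 4.3.3, two-sided, adjusted by Benjamini-Hochberg over all tested probesets at 0.05, on 3 arrays per group. An exact permutation test of 3 against 3 cannot go below 0.1, so none was used. The fit was tested on simulated data. Precision is limited by how few arrays there are.

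The genes, the lists of regulators, targets and markers, and the rule for naming were chosen with earlier results of these data known. Values per array are given for the 12 genes of highest mean, the 5 of smallest p in each direction, 3 just inside and 3 just outside the level, Meis1 and Hhex. Of the lists, the 2 of smallest p in each direction are named, with values per array for those under an unadjusted 0.05. Dhrs3, Yy1, Ash2l, Ezh1 and Rara were named after their values were seen, as was Kdr among the targets. Sums of tubule markers without Gata2 or Aqp1 were chosen after seeing the data. A probeset shared by Hoxb7 and Hoxb8 was left out, as were all with several symbols. All 75 symbols matched RefSeq.

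Alternatives changed the scaling (quantile, or centring on the median), the level (none, or 200), the prior (an intensity trend, alone or robust), the design (the replicate number as a block, array weights, each array omitted in turn), the test (the methods' unpaired t-test with equal variance) and the probesets (1 for each gene, a gene's mean, or those with a listed gene only). Plots used matplotlib 3.10.9 and Python 3.11.15.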

Additional observations from a re-analysis of the deposited data

How the results depend on the processing

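No homeobox gene passed the adjusted test under any alternative run. The count at an unadjusted p under 0.05 (1, Hoxb2) was 2 under quantile normalisation, with 1 probeset per gene and when probesets without a listed gene were dropped (Hoxb2 and Hoxd8 each time), and ranged from 0 to 2 when arrays were left out in turn. The replicate numbers did not pair the arrays (correlations of same-numbered deviations -0.00385, 0.0353 and -0.0296). With them as a replicate block the count was 2 (Hoxb6 and Hoxd8, with Hoxb2 no longer among them). At a level of 200, 25 genes reached it in place of 43, by construction. The median log2 change, 0.0171, was -0.00575 under quantile normalisation, -0.0003 under median centring and 0.00229 without the level filter, and ranged from -0.00994 to 0.029 when arrays were left out; the cause of these shifts was not tested. Irx1 was -0.00317 under quantile normalisation. With array weights Hhex was 0.083, Irx5 0.0089 and Hoxaas2 -0.00273. Leaving out arrays gave ranges that crossed 0 for Irx1 (-0.0759 to 0.0886), Hhex (-0.139 to 0.122), Irx5 (-0.0771 to 0.0838), Hoxaas2 (-0.0358 to 0.0753), Pbx3 (-0.0379 to 0.188), Hoxb4 (-0.00912 to 0.175), Zeb1 (-0.166 to 0.0503), Zeb2 (-0.017 to 0.12) and Meis1 (-0.0555 to 0.492). Otherwise 337 combinations of result and alternative kept their direction and side of the threshold. The signal of genes near 100 or 200, where tubule markers also lie, limits what their changes can show.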
